A study of Mus musculus with 6 samples.

Results

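The 29 genes described here make, move, store and export cholesterol. They are the rows of a deposited table of 19162 mouse genes whose symbol is on a list of enzymes of cholesterol synthesis, of the sterol sensors that control them, and of proteins that carry, esterify, take up or export cholesterol. All 29 were found once in the table and all 29 passed the filter on low counts. Bone marrow cells of C57BL/6J mice had been kept in culture with 40 ng/mL recombinant GM-CSF, a growth factor for myeloid cells, for 4 days. Control libraries came from cells without further addition and KCl libraries from cells that also had 34.7 mM of added KCl, with 3 libraries in each group. They are called control 1, 2 and 4 and KCl 1, 2 and 4 after the numbers in the sample titles. By the series title they are BM-MDSCs, that is, suppressor cells of the myeloid lineage grown from marrow. Added KCl raises potassium, chloride and osmolality together, and these cannot be told apart here.

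Cells make cholesterol from acetyl-CoA through mevalonate, farnesyl diphosphate, squalene and lanosterol. The transcription factor SREBP-2, encoded by Srebf2, is held in the endoplasmic reticulum by its escort SCAP and by INSIG proteins while sterols are plentiful. When sterols run low it is released, cut in the Golgi and sent to the nucleus, where it binds sterol regulatory elements in the promoters of the enzyme genes together with NF-Y, which binds CCAAT boxes, and with SP1, which binds GC boxes. When sterols are in excess, oxysterols activate the nuclear receptor LXR, which raises Abca1 and Abcg1, the cholesterol exporters of macrophages, and Mylip, a ubiquitin ligase that marks lipoprotein receptors for breakdown. Macrophages store surplus cholesterol as esters made by SOAT1.

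The promoters of 4 of the genes are shown for the letters they hold. They were chosen for Hmgcs1, an early enzyme and the only member with a window that holds the sterol regulatory core, Mvk, which has the most CCAAT boxes, Srebf2, which encodes the regulator, and Soat1, the gene that was higher in KCl. Sequences are from RefSeq on GRCm38.p6, the assembly of mm10, and run 5′ to 3′ on the strand of the gene, upstream of the start site and without bases that GENCODE M21 gives to an exon. Capitals mark the sterol regulatory core TCACNCCAC and the CCAAT box on either strand, where it reads ATTGG on the other one. The Hmgcs1 window lies at chr13:119690101-119690350 on the plus strand, the Mvk window at chr5:114444061-114444268 on the plus strand, the Srebf2 window at chr15:82147019-82147180 on the plus strand and the Soat1 window at chr1:156474332-156474578 on the minus strand.
Hmgcs1: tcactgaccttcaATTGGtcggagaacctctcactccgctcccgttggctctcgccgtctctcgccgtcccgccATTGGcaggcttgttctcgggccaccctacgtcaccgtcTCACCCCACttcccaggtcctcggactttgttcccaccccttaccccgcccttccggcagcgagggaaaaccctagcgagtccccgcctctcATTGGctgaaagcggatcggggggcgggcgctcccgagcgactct
Mvk: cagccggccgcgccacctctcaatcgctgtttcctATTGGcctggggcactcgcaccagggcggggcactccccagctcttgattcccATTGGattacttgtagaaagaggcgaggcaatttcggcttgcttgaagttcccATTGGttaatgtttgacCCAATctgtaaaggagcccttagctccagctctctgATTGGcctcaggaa
Srebf2: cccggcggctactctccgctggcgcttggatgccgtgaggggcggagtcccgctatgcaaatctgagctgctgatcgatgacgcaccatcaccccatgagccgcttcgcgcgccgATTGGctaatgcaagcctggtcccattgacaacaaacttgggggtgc
Soat1: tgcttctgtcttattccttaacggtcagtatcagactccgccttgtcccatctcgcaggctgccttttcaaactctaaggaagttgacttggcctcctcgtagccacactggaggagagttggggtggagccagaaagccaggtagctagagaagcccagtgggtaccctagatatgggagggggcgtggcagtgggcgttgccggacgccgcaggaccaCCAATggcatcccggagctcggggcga

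Hmgcs1 has TCACCCCAC from 137 to 129 bases before its start and 3 CCAAT boxes. Mvk has 5 CCAAT boxes, and Srebf2 and Soat1 have 1 each. The RefSeq promoter table matched 23 of the 29 genes, all but Fdps, Fdft1, Sqle, Stard4, Scarb1 and Abcg1. The matched genes had 29 windows of 250 bases upstream of a start. The CCAAT box, searched as CCAAT on both strands, stood in a window of 20 of these 23 genes (87.0%), against 40.6% of the 9765 tested genes with a window and 33.8% of all 32851 windows. The GC box GGGCGG stood in 21 of 23 (91.3%), against 62.9% of tested genes and 32.7% of all windows. The E-box CACGTG stood in 6 of 23 (26.1%), against 9.83% and 6.02%. The core TCACNCCAC was found in 1 of 23, Hmgcs1, and in 117 of 9765 tested genes and 1.05% of windows. No motif contains another, but the end of the sterol core can share bases with the start of an E-box, and a match describes the letters of a window, not a bound site.

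Library totals ranged from 14118724 to 21694831 counts, and the 29 genes took 0.358% to 0.418% of them. Counts of single genes ran from 244 to 10334 in a library. The libraries numbered 4 stood apart from the rest in 1 respect. Among the 8231 genes whose count averaged 300 or more, the log2 ratio of the mean CPM, the counts scaled to library size, of control 4 and KCl 4 to that of the other 4 libraries had an SD of 0.00953. Counting noise would give an SD of 0.0441, and any other pair of libraries (14 pairs) had one between 0.123 and 0.262. For the 29 genes this SD was 0.00314. The 6 libraries are therefore not independent, and whether the counts were adjusted before deposit is not given in the sources used here. If they were, the CPM values and tests below describe adjusted counts. P-values that use them all may be too small and intervals too narrow, and the calls below are also given without control 4 and KCl 4. Since the labels leave unsaid whether libraries came from separate mice or cultures, a p-value here measures only the spread between samples, which may be technical.

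The cells are a mixture by their markers. Summed CPM of 10 neutrophil markers was 10109 to 12391 in control and 12413 to 18856 in KCl, with the highest value in KCl 2, and 2 of them rose and 0 fell. Their median log2 deviation from the mean over libraries overlapped between the groups, at -0.66, -0.19 and 0.29 in control 1, 2 and 4 and 0.13, 0.62 and -0.30 in KCl 1, 2 and 4. The 12 dendritic markers summed to 5768 to 7776 in control and 4278 to 5379 in KCl, and 6 of them fell and 0 rose. Cd74 alone had a mean of 3075 of 6847 CPM in control and 2271 of 4760 CPM in KCl. It overlapped between the groups and was not among those that fell. The median log2 deviation of the 12 was 0.08 to 0.49 in control and -0.53 to -0.06 in KCl. The 10 macrophage markers summed to 1089 to 1526 in control and 2128 to 2308 in KCl, with 4 that rose and 0 that fell. Much of this rise is 1 gene, Gpnmb, which went from a mean of 491 to 1141 CPM. Of the 10, 8 had a log2 fold change above 0 and 2 below it, Adgre1 (-0.13) and Mertk (-0.05). The median log2 deviation of the 10 was -0.50 to -0.09 in control and 0.07 to 0.46 in KCl. The 7 monocyte markers summed to 1515 to 1790 and 2219 to 2532, with 4 that rose and 0 that fell, and the 8 eosinophil markers to 2353 to 2584 and 962 to 1118, with 5 that fell and 0 that rose. Summed CPM of erythroid markers was at most 1.10 in any library. That of lymphocyte markers was low but higher in KCl, at 16.9 to 22.7 in control and 35.6 to 41.4 in KCl, with 2 that rose and 0 that fell. The 5 mast cell markers summed to 297 to 326 in control and 322 to 340 in KCl, with 1 that rose and 1 that fell. In bulk RNA, fewer cells of a type and less RNA per cell cannot be told apart.

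Few of the cholesterol genes passed the test for a difference between KCl and control. Of the 29, 1 rose (Soat1), 2 fell (Fdps and Fdft1) and 26 did not pass the test, namely the quasi-likelihood test of edgeR, with p-values adjusted by Benjamini-Hochberg over all 13326 tested genes and a threshold of 0.05. The share called was 10.3%, against 22.9% of all tested genes, of which 12.4% rose and 10.5% fell. At an unadjusted p under 0.05 there were 7 of the 29, or 24.1%, against 34.2% of all tested genes. Without control 4 and KCl 4, 0 of the 29 passed, as did 0.458% of all tested genes, and 5 (17.2%) had an unadjusted p under 0.05, against 29.8% of all genes. These 5 were Mvk, Fdps, Ebp, Soat1 and Mylip. With a term for replicate 4 as a batch 0 of the 29 passed, against 11.8% of all.

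The differences were also small in size. The median size of the log2 fold change (KCl minus control) was 0.10 over the 29 genes and 0.17 over all tested genes, or 0.16 and 0.25 without replicate 4. None of the 29 reached 0.5 in size, which 16.8% of all tested genes did. The 2 sets were not matched for count level. The 29 genes had at least 244 counts in every library, while the tested genes include scarcer ones, whose fold changes vary more by counting noise. How much of the difference in size comes from this was not tested. The range was -0.44 to 0.28, with a median of -0.04, against -0.00 over all tested genes. Of the 29 genes, 10 were above 0 and 19 below it, against 6582 and 6744 of all 13326 tested genes. The standard error (SE) of a single gene ran from 0.04 to 0.19. The 95% interval of 28 of the 29 lay within 0.5 of 0 on the log2 scale, and it did for 18 of 29 without replicate 4. The exception with all 6 libraries was Abca1.

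**Figure D1:**
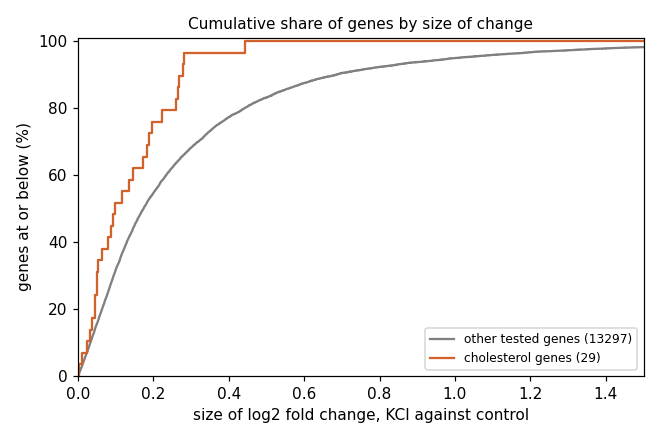
Cumulative share of genes (vertical axis, %) by the size of their log2 fold change between KCl and control (horizontal axis), for the 29 cholesterol genes and the other tested genes. The line of the 29 genes lies above the other and ends below 0.5, while 16.8% of all tested genes lie at or beyond 0.5. The other tested genes include scarcer ones and were not matched for count level.

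Levels per length, as the deposited FPKM (fragments scaled to gene length and library size) gives them, spanned a wide range. Srebf2 had the highest mean, at 96.2, 95.5 and 94.3 FPKM in control 1, 2 and 4 and 91.5, 83.8 and 89.1 FPKM in KCl 1, 2 and 4. Mvd, which makes isopentenyl diphosphate, followed at 78.0 FPKM over the 6 libraries, then Hmgcs1 at 76.3, Abcg1 at 55.7, Insig1 at 45.9 and Fdps at 43.2. This order rests on the gene lengths behind the deposited FPKM, which were not checked. Fdps, with 4208 exon bases, had 281 CPM and 49.8 FPKM in control 1, a lower FPKM than that length would give. Mvd and Hmgcs1 did not differ beyond their spread over libraries, and Insig1 and Fdps did not either. The lowest were Tm7sf2 and Insig2, at 2.51 and 2.50 FPKM. Members of a pair with like function thus differed in level. Insig1, itself a target of SREBP-2, stood at 40.5 to 49.3 FPKM and Insig2 at 2.34 to 2.67 FPKM. Lbr and Tm7sf2, which encode sterol reductases for the same step after Cyp51, stood at 23.8 to 32.0 and 2.34 to 2.69 FPKM. Abcg1 stood at 52.9 to 60.0 FPKM and Abca1 at 3.27 to 5.88 FPKM.

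**Figure D2:**
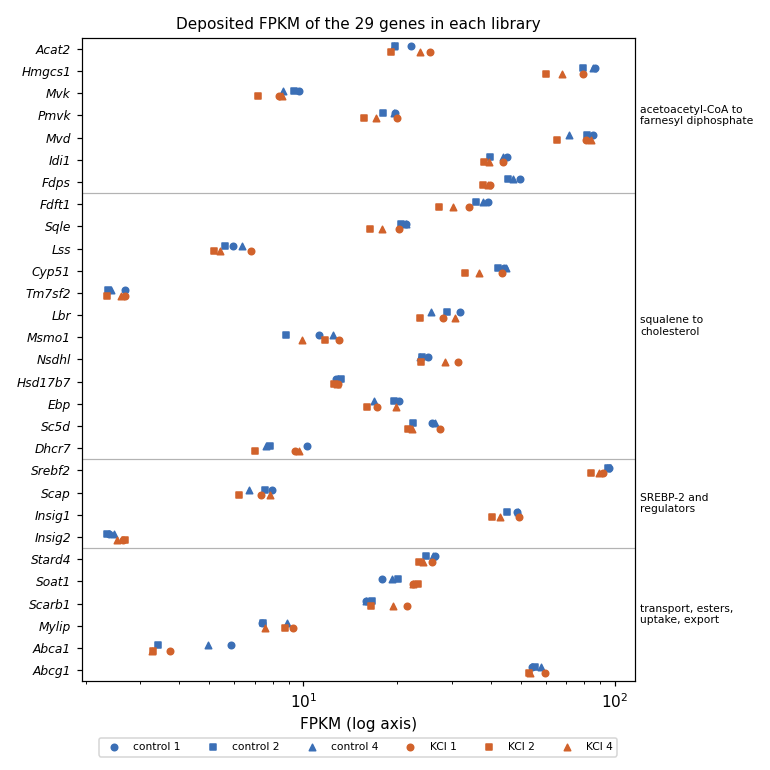
Deposited FPKM (horizontal log axis) of each of the 29 genes in the 3 control (blue) and 3 KCl (orange) libraries, ordered by role. Srebf2, Mvd and Hmgcs1 stand highest, Insig2, Tm7sf2 and Abca1 lowest, and differences between genes are larger than those between groups.

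The 7 genes from acetoacetyl-CoA to farnesyl diphosphate had a median log2 fold change of -0.10, with 1 that fell, 0 that rose and 6 below 0. Fdps encodes the synthase that makes farnesyl diphosphate, the branch point to sterols and to protein prenylation. Its TMM-scaled CPM was 281, 257 and 268 in control 1, 2 and 4 and 225, 224 and 221 in KCl 1, 2 and 4. The KCl libraries lay close together and below every control library. Fdps fell by 0.27 ± 0.05 on the log2 scale (SE, n = 3 per group), to 0.831 of the control level (edgeR quasi-likelihood adjusted p = 0.0133). The adjusted p was 0.0576 without control 4, 0.0625 without KCl 4, 0.119 without both, and from 0.000391 to 0.119 over all 16 alternatives, while the log2 difference stayed between -0.31 and -0.24. Fdps (ENSMUSG00000059743) is on the minus strand of chromosome 3 (mm10), from 89093588 to 89101959. The protein-coding gene model Gm43738 covers 26.7% of its exon bases on the same strand, so reads there could have been assigned to either, and Gm43738 had 216 to 657 counts in a library.

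Hmgcs1, which encodes the synthase that makes HMG-CoA, had CPM of 277, 255 and 274 in control 1, 2 and 4 and 254, 202 and 217 in KCl 1, 2 and 4. Its groups were apart by a small margin, since KCl 1 lay just below control 2, and its log2 difference of -0.26 ± 0.09 did not pass (edgeR adjusted p = 0.101). Mvk, mevalonate kinase, was also apart, at 45.3, 43.6 and 40.5 against 39.1, 34.9 and 39.9 CPM (-0.18 ± 0.08, edgeR adjusted p = 0.149). The next kinase Pmvk (-0.10 ± 0.09), the decarboxylase Mvd (149, 142 and 126 against 142, 119 and 147 CPM, -0.03 ± 0.10) and the isomerase Idi1 (-0.06 ± 0.07) had groups that overlapped. Acat2, which encodes the cytosolic thiolase that starts the pathway, stood at 77.0, 68.7 and 68.5 CPM in control against 89.3, 69.6 and 82.3 in KCl (0.17 ± 0.10) and overlapped too. Its close copy Acat3 is counted separately, at 100 to 191 counts, and the counting could have divided reads between the copies.

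Of the 12 genes from squalene to cholesterol, 1 fell, 0 rose and 11 did not pass, with a median of -0.03. Fdft1, squalene synthase, commits farnesyl diphosphate to sterols. Its CPM was 111, 102 and 108 in control 1, 2 and 4 and 96.7, 81.1 and 85.9 in KCl 1, 2 and 4, so that every KCl library was below every control library. Fdft1 fell by 0.28 ± 0.08 on the log2 scale, to 0.823 of the control level (edgeR quasi-likelihood adjusted p = 0.0485). Leaving out any library but KCl 1 ended this call (edgeR adjusted p from 0.0627 to 0.144), and the adjusted p was 0.202 without both replicate 4 libraries, with a range of 0.0233 to 0.202 over the alternatives. Fdft1 (ENSMUSG00000021273) is on the minus strand of chromosome 14, from 63145150 to 63179578. On the opposite strand the cathepsin gene Ctsb shares 18.3% of the exon bases of Fdft1, and Ctsb is more abundant and rose, from 1004 ± 114 to 1518 ± 60.2 CPM (mean ± SD). The strand setting of the counting is not given in the sources used here, and the part of this overlap in the Fdft1 counts was not tested.

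Sqle, squalene epoxidase, came next in the pathway and was lower in the KCl libraries without passing. Its CPM was 181, 175 and 182 in control and 172, 145 and 152 in KCl (-0.20 ± 0.07, edgeR adjusted p = 0.111), and the groups did not overlap. Cyp51, the lanosterol demethylase, stood at 237, 227 and 242 against 235, 186 and 198 CPM (-0.19 ± 0.09), with KCl 1 inside the control range. Lanosterol synthase Lss (-0.02 ± 0.11), the reductase genes Lbr (-0.05 ± 0.11) and Tm7sf2 (0.05 ± 0.08), the isomerase gene Ebp (-0.08 ± 0.10), the desaturase gene Sc5d (-0.04 ± 0.11) and Dhcr7 (0.04 ± 0.16), the reductase of the last step, overlapped between groups. Without replicate 4 the difference of Ebp was -0.23, with a 95% interval from -0.43 to -0.03 (edgeR adjusted p = 0.136). Hsd17b7, a sterol ketone reductase, differed least, at 69.9 to 72.8 CPM in control and 70.4 to 72.0 in KCl. Its 95% interval ran from -0.11 to 0.11 with all 6 libraries and from -0.19 to 0.20 without replicate 4.

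Some demethylation enzymes had values on the other side of 0. Nsdhl, the dehydrogenase that removes methyl groups with Msmo1 and Hsd17b7, stood at 75.1, 71.8 and 71.2 CPM in control against 94.4, 74.8 and 85.3 in KCl (0.22 ± 0.09, edgeR adjusted p = 0.143). KCl 2 lay within the control range. Msmo1, the methyl sterol oxidase, varied within both groups, at 110, 86.5 and 123 CPM in control against 128, 121 and 97.2 in KCl (0.12 ± 0.16).

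Which enzymes passed depended on the libraries included. KCl 2 was the lowest of the 6 libraries for 10 of the 19 enzymes and KCl 1 for 0 of them, while KCl 1 was the highest KCl library for 13. Without KCl 1, 5 enzymes passed in edgeR's test, all lower in KCl: Fdps, Fdft1, Hmgcs1 (adjusted p = 0.0323), Sqle (0.0374) and Cyp51 (0.0404). Over the alternatives the largest adjusted p of these last 3 were 0.300, 0.327 and 0.484, all without replicate 4. Without KCl 2, 1 enzyme fell (Fdps) and Nsdhl rose (adjusted p = 0.0392, against 0.342 at most in the fits without 1 other library). The summed CPM of the 19 enzymes was 2493, 2290 and 2382 in control 1, 2 and 4 and 2401, 2066 and 2207 in KCl 1, 2 and 4, so KCl 1 lay inside the control range and the other KCl libraries below it. In the same order the dendritic markers summed to 7776, 5768 and 6998 CPM and to 5379, 4278 and 4624 CPM. Library 1 was highest and library 2 lowest of each group in both sums. This order was not particular to the dendritic markers. The eosinophil markers had it too, at 2584, 2353 and 2358 CPM in control and 1118, 962 and 1093 CPM in KCl. So did the sum of SREBP-2 and its regulators, while the sums of the other marker lists did not. The part of cell composition in the enzyme levels was not tested.

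**Figure D3:**
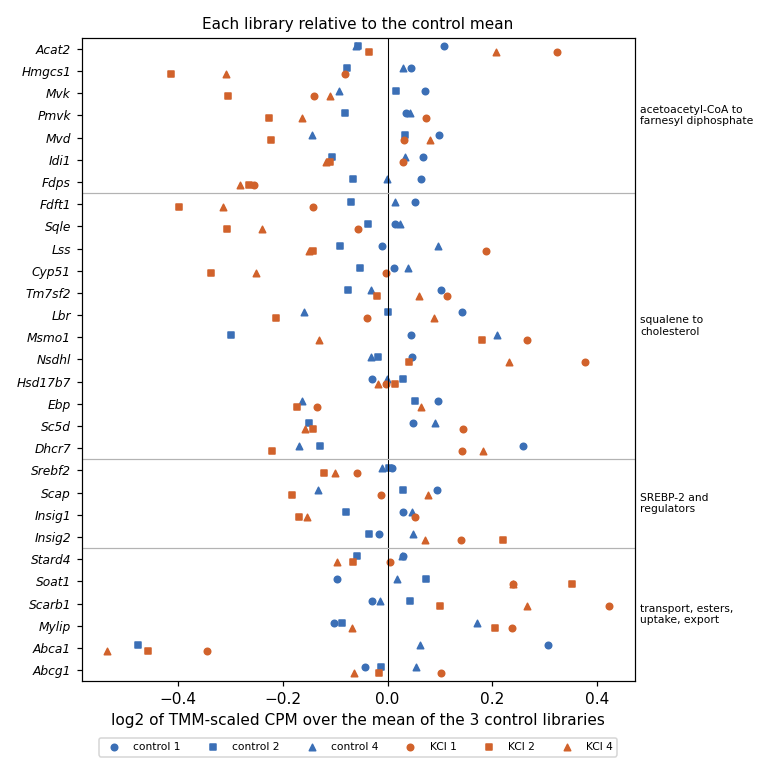
TMM-scaled CPM of each gene in each library, as the log2 ratio to the mean of the 3 control libraries (horizontal axis); blue marks control, orange KCl, and the marker shape the replicate number. The KCl values of Fdps lie close together below 0 and those of Soat1 above 0, while for Hmgcs1, Sqle and Cyp51 KCl 1 lies near the control libraries and KCl 2 lowest.

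Of the 4 genes of SREBP-2 and its regulators, none passed. Srebf2 stood at 475, 473 and 469 CPM in control 1, 2 and 4 and 454, 434 and 441 in KCl 1, 2 and 4. The groups did not overlap, but the log2 difference was -0.09 ± 0.04 and did not pass (edgeR adjusted p = 0.206, 95% interval -0.20 to 0.01). Scap, the escort of SREBP-2, overlapped between groups at 59.7 to 69.9 and 57.7 to 69.0 CPM. Insig1 did too, at 167, 155 and 169 CPM in control against 169, 145 and 147 in KCl (-0.09 ± 0.08). Insig2 was higher in every KCl library, at 17.8, 17.6 and 18.6 against 19.9, 21.0 and 18.9 CPM, by 0.15 ± 0.07 (edgeR adjusted p = 0.196). None of these 4 genes passed in any of the 16 alternatives.

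Among the 6 genes of transport, storage, uptake and export, 1 rose and 5 did not pass. Soat1 encodes the acyltransferase that turns free cholesterol into esters for storage in lipid droplets. Its CPM was 233, 262 and 252 in control 1, 2 and 4 and 294, 318 and 294 in KCl 1, 2 and 4, and all KCl libraries were above all control libraries. Soat1 rose by 0.28 ± 0.06 on the log2 scale, or 1.21-fold (edgeR quasi-likelihood adjusted p = 0.0257). The call held without control 2 and was lost without any other library (edgeR adjusted p from 0.0561 to 0.0839), and without replicate 4 it was 0.124, with a range of 0.00858 to 0.124 over the alternatives. Soat1 (ENSMUSG00000026600) is on the minus strand of chromosome 1, from 156424525 to 156474331. It is found in macrophages, and the macrophage markers, whose sum did not overlap between the groups either, are given above; their part in this result was not tested.

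Scarb1, the scavenger receptor that exchanges cholesterol with HDL, had groups that were apart as well, at 193, 203 and 195 CPM in control against 264, 211 and 237 in KCl. Its difference of 0.27 ± 0.09 did not pass in edgeR (adjusted p = 0.0731) and did in DESeq2 (adjusted p = 0.0479), with a range of 0.0294 to 0.230 over the alternatives. The cytosolic sterol carrier gene Stard4, a target of SREBP-2, stood at 167 to 178 and 163 to 175 CPM (-0.05 ± 0.05). Mylip stood at 22.4, 22.6 and 27.0 CPM in control against 28.3, 27.7 and 22.9 in KCl (0.13 ± 0.12), and control 4 and KCl 4 were the reverse of the other libraries.

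Neither exporter passed the test. Abcg1, which passes cholesterol to HDL, stood at 226, 231 and 242 CPM in control against 251, 231 and 223 in KCl, with a log2 difference of 0.01 ± 0.06 and a 95% interval from -0.14 to 0.16. Its sign turned with upper-quartile scaling (-0.036), with library size only and with no filter. Abca1, which loads lipid-poor apolipoproteins, had the widest spread of the 29 genes in control relative to its mean. It stood at 61.5, 35.8 and 51.9 CPM in control 1, 2 and 4, against 39.2, 36.2 and 34.3 CPM in KCl. Control 2 lay within the KCl range and the other control libraries above it. The difference was -0.44 ± 0.19 (edgeR adjusted p = 0.171), with a 95% interval from -0.91 to 0.03. Without control 2 it was -0.64 and passed (edgeR adjusted p = 0.0176), and the adjusted p was as high as 0.402 without another library.

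**Figure D4:**
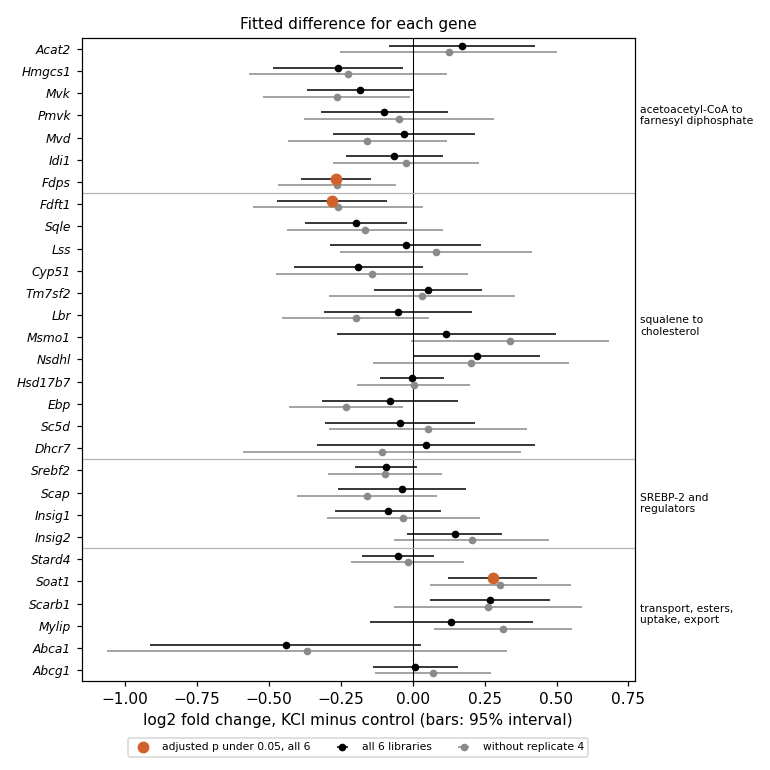
Log2 fold change of each gene, KCl minus control (horizontal axis), for all 6 libraries (black) and without replicate 4 (grey). Bars are 95% intervals derived from edgeR's test. Orange points passed at an adjusted p under 0.05 with all 6. The points of Fdps, Fdft1 and Soat1 passed, the black intervals of 28 genes and the grey ones of 18 lie within 0.5 of 0, and Abca1 has the widest of both.

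A further 38 genes of sterol metabolism, listed from textbook knowledge, were set beside these. All 38 were tested, and 6 rose, 2 fell and 30 did not pass, or 21.1% called against 22.9% of all tested genes. Without replicate 4, 0 of the 38 passed. The largest rise was in Lrp1, an endocytic receptor of macrophages, which went from 357, 453 and 428 CPM in control 1, 2 and 4 to 720, 762 and 688 in KCl 1, 2 and 4. Lrp1 rose 1.75-fold (log2 0.81 ± 0.10, edgeR adjusted p = 0.00485) and passed without any 1 library, and its adjusted p was 0.0686 without replicate 4. The scavenger receptor gene Msr1 rose from 118 ± 19.6 to 197 ± 30.1 CPM (log2 0.74 ± 0.16), though it missed the threshold when control 4, KCl 2 or KCl 4 was absent, with edgeR adjusted p between 0.0522 and 0.0613. Of the lysosomal and contact-site sterol carriers, Npc2 rose from 400 ± 6.91 to 483 ± 12.3 CPM (log2 0.27 ± 0.05, edgeR adjusted p = 0.0103), and Stard3 rose by 0.30 ± 0.07. Npc2 passed without any 1 library. Stard3 held only without control 1 or control 2, with edgeR adjusted p between 0.0562 and 0.0762 otherwise.

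The ester enzymes in this list included 2 that rose, which the naming rule did not take and which are given after their values were seen. Lipa, the lysosomal lipase that frees cholesterol from lipoprotein esters, went from 185, 254 and 222 CPM in control to 286, 350 and 309 in KCl (log2 0.52 ± 0.13, edgeR adjusted p = 0.0376). Nceh1, a cholesterol ester hydrolase of macrophages, rose by 0.33 ± 0.09. Both missed the threshold unless the library left out was control 2 (edgeR adjusted p between 0.0550 and 0.109). Lrp1, Msr1, Npc2 and Lipa act in uptake and in lysosomes, and the macrophage marker sums given above were also higher in KCl; their part was not tested.

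Of the 16 genes of SREBP processing, sterol sensing and LXR, 2 fell and 0 rose, where 10.5% of all tested genes fell and 12.4% rose. Sec23a, a coat protein that carries SCAP with SREBP-2 out of the endoplasmic reticulum, fell by 0.29 ± 0.06, and Lpcat3, a phospholipid enzyme and LXR target, by 0.27 ± 0.05 on the log2 scale (edgeR adjusted p = 0.0215 and 0.0127). Sec23a missed the threshold when control 1, control 4, KCl 2 or KCl 4 was absent, with edgeR adjusted p between 0.0610 and 0.0882, and Lpcat3 without control 4 or KCl 4 (0.0552 and 0.0605). Srebf1, the other SREBP gene, stood at 142 to 160 CPM in control and 141 to 161 in KCl (0.04 ± 0.07, -0.01 with upper-quartile scaling). Of the LXR genes, Nr1h2 stood at 104 ± 2.88 and 109 ± 6.42 CPM (0.06 ± 0.06), and Nr1h3 was scarce and varied, at 4.19, 7.33 and 4.38 CPM in control against 3.78, 8.57 and 7.58 in KCl. Ch25h, which makes an oxysterol that blocks SREBP processing, was low, at 5.38, 6.91 and 8.40 CPM in control against 11.5, 13.6 and 8.85 in KCl. Its groups were apart, and its difference of 0.73 ± 0.22 did not pass in edgeR (adjusted p = 0.0593) and did in DESeq2 (0.0249), with a value of 0.0772 without replicate 4 and of 0.156 at most in the fits that left out libraries. Cyp27a1, which makes another oxysterol, stood at 8.39 ± 0.731 and 9.85 ± 0.865 CPM (0.23 ± 0.11, edgeR adjusted p = 0.185).

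**Figure D5:**
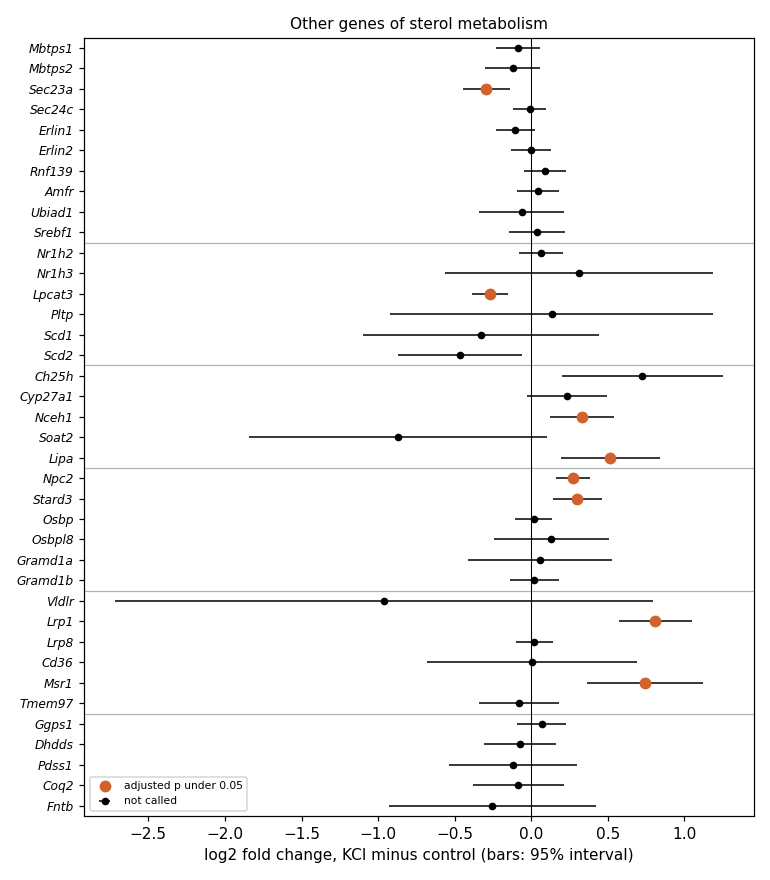
Log2 fold change, KCl minus control (horizontal axis), of the 38 other sterol genes, with 95% intervals derived from edgeR's test on all 6 libraries. Orange points passed at an adjusted p under 0.05, and lines part the groups by role. Lrp1 and Msr1 rose most, Sec23a and Lpcat3 fell, and the scarce Vldlr and Soat2 have wide intervals.

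In all, 9 of the 29 cholesterol genes had groups that did not overlap in CPM, 3 with KCl above and 6 with KCl below, or 31.0% against 38.5% of all tested genes (20.2% above and 18.4% below). Those above were Soat1, Scarb1 and Insig2. Those below were Hmgcs1, Mvk, Fdps, Fdft1, Sqle and Srebf2.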

How the data were processed

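Trizol RNA of 3 control and 3 KCl libraries was read on a NovaSeq, per the labels' protocols. The submitters' processing notes name build mm10 and the tools HISAT2 2.0.4, StringTie 1.3.3b and edgeR. The authors deposited whole-number values named as read counts per gene, and FPKM per gene, per the file headers; whether the counts are raw is not known. How reads were counted, and whether by strand, is not given in the sources used here. FPKM served for levels between genes only and entered no test.

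The test on counts was run with edgeR 4.0.16 under R 4.3.3, with filterByExpr (minimum count 10, minimum total 15), TMM scaling and the robust quasi-likelihood test, 2-sided, without a replicate block, on all 13326 genes kept. The SE was derived from that test, as the size of the log2 fold change over the square root of its F statistic. Intervals are at 95% and use this SE and the fit's degrees of freedom, so both are approximate. The members and lists were chosen with earlier results of these data known. Members past the threshold, the 6 with the highest FPKM, up to 6 called genes of the other list and 5 fixed ones were to be named; other members are given with fewer values. The settings varied were the scaling (RLE, upper quartile, library size only), the filter (none, or a mean CPM of 5 or more), the test (DESeq2 1.42.0, limma-voom with limma 3.58.1), a replicate block, a batch term for replicate 4, and the libraries included (each left out, and both of replicate 4). Coordinates are from GENCODE M21.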

Additional observations from a re-analysis of the deposited data

How the results depend on the processing

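Across the 16 alternatives, 405 of 464 values of the 29 genes kept their direction and their side of the threshold, 23 lost the call, 7 gained one and 29, from 9 genes and at most 0.11 in size, changed sign. No value that changed sign was called. The count of cholesterol genes called was 2 to 4 with other scalings, filters and tests, 1 with the replicate block (Soat1), 0 with replicate 4 as a batch term and 0 to 5 when libraries were left out. For the other sterol genes, called 8 times, these were 7 to 10, 4, 3 and 0 to 8, and for all genes, of which 3057 passed, 2553 to 3157, 1678, 1573 and 62 to 2851; the cause of the drops was not tested. All genes called numbered 1439 without control 4, 1505 without KCl 4 and 62 without both. Upper-quartile scaling called 1422 higher and 1735 lower of all genes, against 1655 and 1402. Whether the replicate numbers pair the libraries could not be told from the counts. Same-numbered libraries 1, 2 and 4 had deviations from their group means that correlated across genes at 0.0227, -0.0555 and -0.889. The last value follows from the tie of control 4 and KCl 4 to the other libraries. An adjustment of the counts before deposit could also have altered the first 2 values. The median of the 29 genes stayed between -0.09 and 0.00 in every alternative.

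Values near 0 that turned sign were those of Abcg1 (-0.036, -0.011 and -0.012 with upper-quartile scaling, library size only and no filter), Srebf1 (-0.0072 with upper-quartile scaling) and Hsd17b7 (0.0023 with a mean CPM of at least 5). With libraries left out, log2 fold changes ran from -0.16 to 0.055 for Mvd, -0.14 to 0.082 for Lss, -0.20 to 0.025 for Lbr, -0.015 to 0.34 for Msmo1, -0.027 to 0.012 for Hsd17b7, -0.15 to 0.054 for Sc5d, -0.11 to 0.19 for Dhcr7, -0.16 to 0.030 for Scap, -0.039 to 0.071 for Abcg1 and -0.027 to 0.10 for Srebf1.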
